A study of Mus musculus with 28 samples.

Results

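The replication-dependent histone genes of the mouse lie in clusters and make the bulk of the core and linker histones that package newly copied DNA. The members described here are the protein-coding genes whose GENCODE M21 symbol starts with Hist1h, Hist2h, Hist3h or Hist4h. That rule gives 67 symbols, and 54 of them, matched by Ensembl identifier, are among the 30608 gene rows analysed. By class they are 6 genes for the linker histone H1, 13 for H2A, 12 for H2B, 10 for H3 and 13 for H4. In GRCm38, 46 of the 54 lie on chromosome 13 between positions 21715763 and 23764406, 5 on chromosome 3, 2 on chromosome 11 and 1 on chromosome 6. The 13 other symbols, 5 of H2A, 6 of H2B and 2 of H3, were not analysed here.

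The study measured RNA in CTLL2, a line of cytotoxic mouse T cells that grows on interleukin-2 and is labelled C57BL/6, after exposure to exosomes shed by B16F0 mouse melanoma cells. Exosome-treated cells received fresh medium with exosomes at 0.2 mg/ml, suspended in PBS, at time 0, and 3 libraries each were made at 0.5, 2, 4 and 8 h. Untreated cells received fresh medium without exosomes and also gave 3 libraries at each of those times, plus 4 at 0 h, for 28 libraries in 9 groups. The sequencing columns fall into Set1, with 9 libraries, 1 from each group, and Set2, with 19 libraries. The sample descriptions label the sets as batches, Batch 1 or Batch 2. All groups are the same cell line, and a bulk library cannot tell fewer cells of a type from less RNA per cell.

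Cells make most replication-dependent histone mRNA during S phase, when new DNA has to be wrapped into nucleosomes. These mRNAs normally end just past a short stem-loop in place of a poly(A) tail. The stem-loop binding protein SLBP holds that structure, and the U7 small nuclear ribonucleoprotein guides the cleavage after it. When DNA synthesis stops, the stem-loop mRNAs are tailed with uridines and degraded. A smaller amount of polyadenylated transcript is made from some of the genes when the polymerase reads past the stem-loop to a poly(A) signal, which is known in differentiated cells. The libraries came from a TruSeq RNA kit, which selects poly(A) RNA, so the values below are levels of what such a selection kept and not the whole histone mRNA of the cells.

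The 5 stem-loops shown here belong to members whose values carry the results below. Capitals mark the 16 bases of the stem-loop motif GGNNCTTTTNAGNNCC, read on the sense strand, and the lower-case letters are the 5 bases on either side.
Hist1h1c: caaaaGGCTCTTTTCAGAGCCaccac
Hist1h4i: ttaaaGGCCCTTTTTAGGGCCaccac
Hist1h2ae: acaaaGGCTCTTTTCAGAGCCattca
Hist1h3c: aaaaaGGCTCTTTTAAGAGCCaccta
Hist3h2a: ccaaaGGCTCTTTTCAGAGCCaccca
In GRCm38 they lie at chr13:23739507-23739532 on the plus strand, chr13:22040961-22040986 on the minus strand, chr13:23570663-23570688 on the minus strand, chr13:23745042-23745067 on the minus strand and chr11:58955167-58955192 on the plus strand. Hist1h1c, Hist1h2ae and Hist3h2a carry the same 16 bases, and Hist1h4i and Hist1h3c each carry another form. The motif was found in protein-coding transcripts of 72 of 21901 genes, or 0.329%, and 44 of those 72 are among the 67 histone symbols. Its commonest form in the 44, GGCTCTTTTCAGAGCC, was in 26 genes, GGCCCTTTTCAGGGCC in 7 and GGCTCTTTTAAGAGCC in 6.

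Where the annotated exons end differs among the members. In 23 of the 54 genes the annotation runs more than 50 bases past the stem-loop, by 51 to 4884 bases. Hist1h1c runs on for 840 bases, Hist1h4i for 330, Hist1h2ae for 151, Hist1h3c for 74 and Hist3h2a for 1643. Another 14 genes end 3 to 46 bases past the stem-loop, 8 are annotated as coding sequence alone, and 9 held no match to the motif in their transcripts. Mean normalized counts per kb of exon had a median of 9.25 in the 23 long genes, 16.8 in the 14 that end at the stem-loop, 18.5 in the 8 coding-only genes and 23.2 in the 9 without a match. The ranges overlapped, at 0.195 to 1090 per kb in the long genes and 0.890 to 37.6 per kb in those that end at the stem-loop. Not scaled to length, the medians of the mean counts ran in another order, with the long genes highest. Those medians were 11.1 for long genes, 7.33 for those ending at the stem-loop, 7.43 for coding-only genes and 9.61 without a match. Reads counted in a longer annotation need not come from a longer transcript, so this is a description of the gene models.

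Levels were dominated by 4 genes, and most members were near the limit of detection. Values are counts that the authors divided by a size factor per library, called normalized counts here. Over the 28 libraries the mean normalized count was 909 for Hist1h1c (ENSMUSG00000036181.2, chr13:23738808-23740367, plus strand), a gene of linker histone H1. It was 792 for Hist1h4i (ENSMUSG00000060639.5, chr13:22040636-22041362, minus strand), a gene of H4. Hist1h2bc, an H2B gene, averaged 239 and Hist2h2be, an H2B gene on chromosome 3, averaged 124. In Set1 Hist1h1c averaged 1456 ± 337 (SD, n = 9), above Hist1h4i at 882 ± 269, and it was the higher of the pair in all 9 libraries. In Set2 Hist1h1c averaged 651 ± 88.6 (SD, n = 19), below Hist1h4i at 750 ± 122, and was the higher in 3 of 19 libraries. These 4 genes held 68.8 to 83.9% of the members' counts in a library, with a median of 77.5%. The median of the 54 means was 8.32 normalized counts, 31 genes averaged below 10 and 4 averaged below 1. Those last 4 were Hist1h1t, the testis H1 gene, at 0.39, Hist1h4m at 0.36, Hist3h2ba at 0.12 and Hist2h2ab at 0.04.

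Per kb of annotated exon, Hist1h4i led with 1090 normalized counts per kb, ahead of Hist1h1c at 583, Hist1h2bc at 207 and the H4 gene Hist1h4k at 105. The highest H2A level per kb was 75.5 in Hist1h2ae and the highest H3 level per kb was 43.0 in Hist1h3c. The second-highest levels per kb were 25.8 in Hist1h1b for H1, 37.6 in Hist1h2ag for H2A, 47.5 in Hist2h2be for H2B and 31.6 in Hist1h3h for H3. The class medians of the mean counts, which are not scaled to length, were 16.5 for H1, 7.89 for H2A, 7.25 for H2B, 10.5 for H3 and 7.37 for H4. In each class but H1 the genes are close copies: the median share of 50-base stretches that a member has in common with another annotated gene, on either strand, was 64.8% in H2A, 46.9% in H2B, 57.2% in H3 and 39.5% in H4, against 1.13% in H1. How the authors counted reads that match several genes is not given in the sources used here, so levels of the near-identical members are uncertain. Exons of 16 members also overlap those of another gene, mostly an antisense one, and reads of such pairs cannot be told apart without strand. Hist3h2a shares exon with Trim17, and Hist1h2be with Hist1h1e on the same strand.

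**Figure D1:**
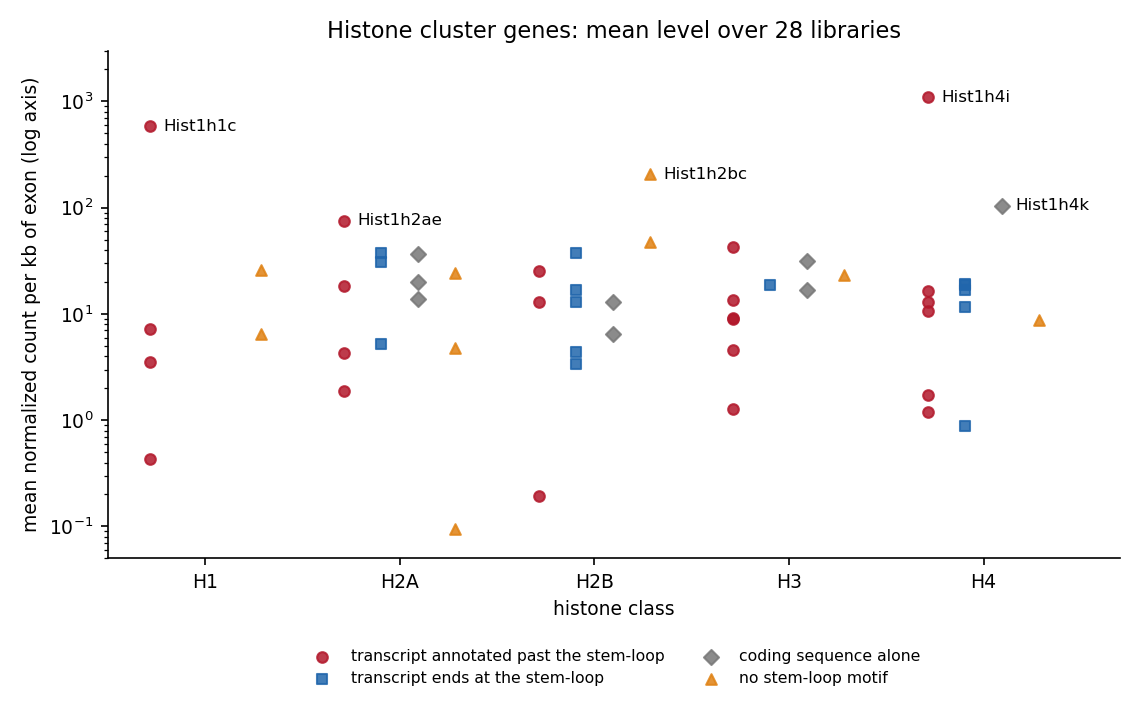
Mean normalized count per kb of annotated exon over the 28 libraries for each of the 54 histone genes, by class on the x axis, on a log y axis, with marker shapes for where the annotated transcript ends. Hist1h4i stands highest at 1090 per kb, followed by Hist1h1c at 583 and Hist1h2bc at 207.

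All members together took 1290 to 6021 reads in a library, or 0.0132 to 0.0309% of its reads counted in genes, which are not every read sequenced. The library totals recovered from the deposited values ran between 6072984 and 24085812 reads, and 3 reads corresponded to 1.88 to 7.47 normalized counts. A filter of 10 normalized counts in at least 3 libraries left 14828 genes for testing. It kept 35 of the 54 members, which are 4 of 6 H1, 8 of 13 H2A, 7 of 12 H2B, 8 of 10 H3 and 8 of 13 H4 genes. The 19 others were too low to be tested, and nothing below covers them except in sums.

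The promoters set the classes apart by sequence. RefSeq promoters of GRCm38.p6, running from 250 bases before to 50 bases after the start site, were matched for 49 of the 54 genes, and the counts by class also take in annotated symbols that were not analysed here. The CCAAT box, read as CCAAT on either strand, was in all 6 H1, 18 H2A, 16 H2B and 10 H3 promoters and in 3 of 12 H4 promoters, against 41.1% of 27025 promoters overall. The octamer ATTTGCAT, known as an Oct-1 motif of H2B genes, was found in 7 of 16 H2B and 7 of 18 H2A promoters, in none of the H1, H3 and H4 promoters, and in 1.97% of all promoters. TATAAA was in 4 of 6 H1, 11 of 18 H2A, 8 of 16 H2B, 4 of 10 H3 and 8 of 12 H4 promoters, against 15.7% overall. Hist1h2bc and its neighbour Hist1h2ac, an H2A gene, start 251 bases apart on opposite strands, and the 250 bases between their start sites are shown because 2 genes of such different level share them. The region is chr13:23683949-23684198, plus strand, GRCm38.p6, and capitals mark CCAAT, ATTTGCAT and TATAAA on either strand.
Hist1h2ac to Hist1h2bc: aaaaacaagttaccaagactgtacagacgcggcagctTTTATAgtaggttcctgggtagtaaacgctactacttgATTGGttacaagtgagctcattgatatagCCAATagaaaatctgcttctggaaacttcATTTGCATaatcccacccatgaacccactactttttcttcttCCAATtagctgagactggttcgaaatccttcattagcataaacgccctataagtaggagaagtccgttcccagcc
The octamer begins 117 bases and the CCAAT boxes 146 and 75 bases before the Hist1h2bc start. Toward Hist1h2ac, TATAAA lies 43 bases and CCAAT 80 bases before the start. Hist1h2bc averaged 207 normalized counts per kb and Hist1h2ac 1.87 per kb. Hist1h2ac is annotated at 2482 bases, 2010 of them past its stem-loop, and Hist1h2bc at 1156 bases without a match to the motif. Not scaled to length, Hist1h2bc averaged 349 in Set1 and 187 in Set2, against 6.89 and 3.57 for Hist1h2ac. Both are levels after poly(A) selection, and what sets them apart was not tested. A match to these letters is a description and not evidence that a factor binds.

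The cells carried T cell transcripts: Cd3e, a subunit of the T cell receptor complex, had a median of 3529 normalized counts and Gzmb, granzyme B, of 38440. Summed melanocyte markers stood at 54.8 to 136 normalized counts in the 12 exosome libraries, against 6.82 to 15.5 in the 16 untreated libraries. Before the members are compared, 4 libraries need naming because they stood apart in Rn7sk, a small nuclear RNA without a poly(A) tail. Rn7sk was at 229 normalized counts in exosome 2 h replicate 2, 109 in exosome 4 h replicate 1, 247 in untreated 8 h replicate 1 and 257 in untreated 8 h replicate 2. It was 7.72 to 79.6 in the other 24 libraries. All 4 libraries also held more than 50 normalized counts of Acta1, skeletal muscle actin, as did 4 others, though its median over the libraries was 2.60. Of the 6 other muscle markers, Mb, Myh4, Tnnc2 and Tnnt3 had medians of 0 over the libraries. Their highest values were 72.7 for Mb, 631 for Myh4, 25.4 for Tnnc2 and 357 for Tnnt3, so they too were high in some libraries. Ckm, with a median of 578, and Mylpf, with a median of 143, were present in every library.

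Together these 4 libraries held the highest value of 33 of the 54 histone genes. Of the 33, 17 were in untreated 8 h replicate 2, 9 in untreated 8 h replicate 1 and 6 in exosome 2 h replicate 2. Exosome 4 h replicate 1 held only 1. The same share over all genes is not given here, so the count is not read as particular to the histone genes. The summed normalized count of the 50 members outside the 4 leading genes was 822, 693, 840 and 1014 in exosome 2 h replicate 2, exosome 4 h replicate 1, untreated 8 h replicate 1 and untreated 8 h replicate 2. In the 24 other libraries that sum lay between 439 and 758. The 758 was in untreated 2 h replicate 1, a Set1 library, while exosome 4 h replicate 1 is a Set2 library. Among the Set2 libraries of those 24 the sum ran from 439, in untreated 2 h replicate 2, to 535, in exosome 0.5 h replicate 3. Both libraries with the highest Rn7sk at 8 h were untreated, and the third untreated 8 h library had 27.7 normalized counts of Rn7sk and a member sum of 524. Exosome 8 h libraries had Rn7sk at 40.8, 19.3 and 21.5, with member sums of 539, 480 and 485. What part Rn7sk, the muscle transcripts or their source have in the histone values was not tested.

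**Figure D2:**
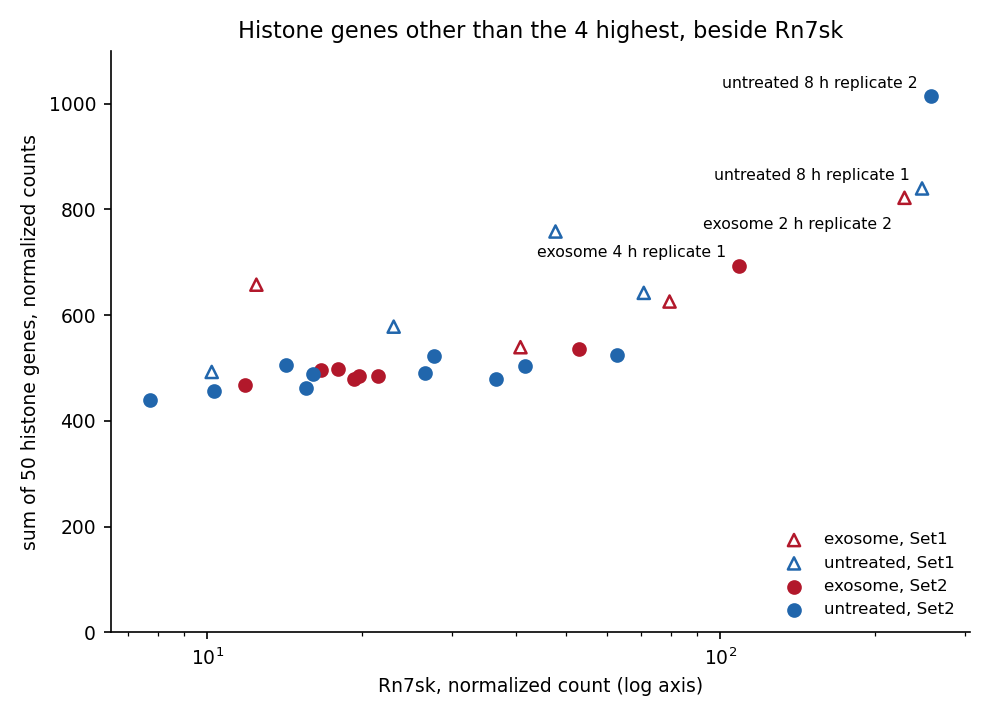
Summed normalized count of the 50 histone genes other than Hist1h1c, Hist1h4i, Hist1h2bc and Hist2h2be against the normalized count of Rn7sk, 1 point per library. The 4 libraries with Rn7sk above 100 have sums of 822, 693, 840 and 1014, against 439 to 758 in the other 24. The 693 is a Set2 library, and the other Set2 libraries with Rn7sk up to 100 reach at most 535. The 758 is a Set1 library.

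Class sums show how the members ran over the 9 groups, and they were read within Set1 and Set2 apart. In Set1 there is 1 library per group, so those values have no replicate check. The H1 sum at 0 h was 989 in Set1 and averaged 610 in Set2. In exosome-treated cells it was 1515, 1890, 1568 and 1216 in Set1 at 0.5, 2, 4 and 8 h, and in untreated cells 1367, 1805, 1427 and 2082. The Set2 means at those times were 787, 698, 789 and 634 in exosome-treated cells, against 696, 659, 711 and 816 in untreated cells. The H1 sum was lower in exosome-treated than in untreated cells at 8 h in both sets and higher at the other times, and these sums were not tested.

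The H4 sum, most of it Hist1h4i, was 802 at 0 h in Set1 and averaged 828 in Set2. Set1 libraries held 787, 1238, 850 and 820 normalized counts at 0.5, 2, 4 and 8 h with exosomes, against 851, 1365, 766 and 1557 without. Set2 means were 776, 780, 997 and 909 with exosomes, against 757, 728, 822 and 1100 without. At 8 h the untreated value was the highest of its set in Set1 and in Set2. The 2 h libraries of Set1 were high in both treatments, and those of Set2 were not.

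H2A sums at 8 h were 134 with exosomes and 284 without in Set1, and averaged 143 with exosomes and 221 without in Set2. For H2B the 8 h sums were 539 with exosomes and 705 without in Set1, and the Set2 means were 386 with exosomes and 485 without. H3 sums at 8 h were 83.6 with exosomes and 148 without in Set1, and the Set2 means were 102 with exosomes and 141 without. At 4 h H2A and H3 went the other way in Set2, at 197 with exosomes and 139 without for H2A, 118 with exosomes and 95.5 without for H3, while H2B nearly coincided at 412 with exosomes and 415 without. Among the exosome libraries behind the Set2 values at 4 h, replicate 1 is high in Rn7sk, with 208 for H2A and 128 for H3. The other exosome library, replicate 3, had 186 for H2A and 108 for H3. In Set1 the 4 h sums were 216 with exosomes and 144 without for H2A, and 99.7 with exosomes and 99.4 without for H3. Each Set2 mean rests on 2 libraries, or on 3 at 0 h.

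**Figure D3:**
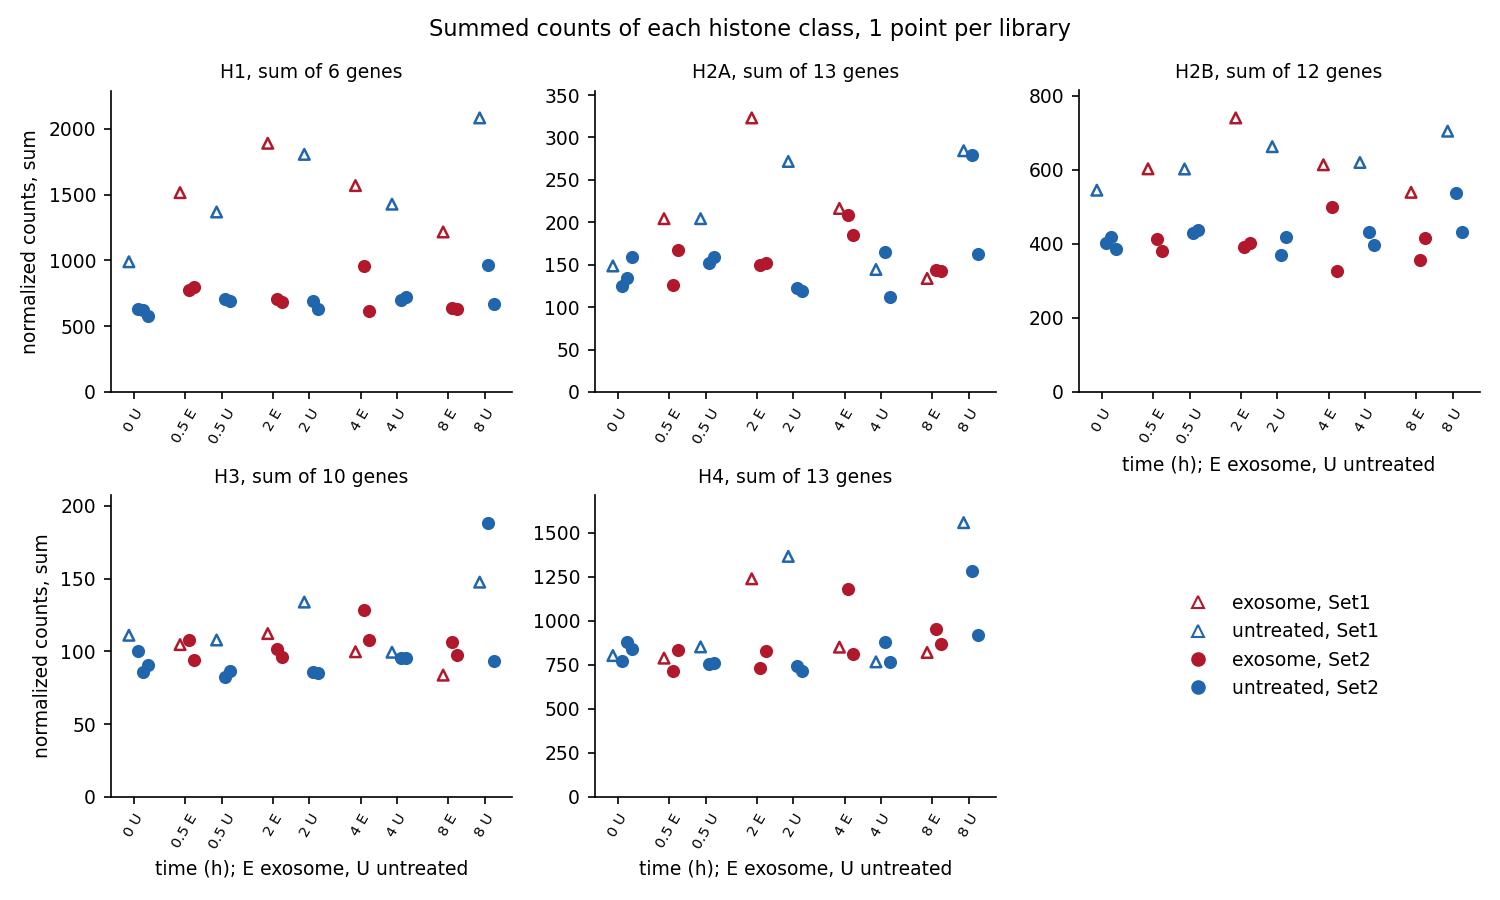
Summed normalized counts of the H1, H2A, H2B, H3 and H4 members in each library by time after medium change, with exosome-treated and untreated cells and Set1 and Set2 marked apart. Set1 libraries lie above Set2 libraries for H1, at 989 to 2082 against 580 to 963.

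The first comparison asks whether melanoma exosomes change histone transcripts in these T cells at each time. No member passed the test at any time. With limma on log2(normalized count + 1), a term for Set, and Benjamini-Hochberg adjustment over 14828 genes, 0 of the 35 tested members were called at 0.5, 2, 4 or 8 h or for the mean over the 4 times. Of all genes, 0.243%, 0.189%, 0.155% and 0.452% were called at 0.5, 2, 4 and 8 h, and 0.459% for the mean effect. Lower in exosome-treated cells were 0.00% at 0.5, 2 and 4 h and for the mean, and 0.0607% at 8 h, the rest being higher (0.391% at 8 h). At an unadjusted p under 0.05 the members numbered 1, 0, 4 and 14 of 35 at 0.5, 2, 4 and 8 h. For the mean the number was 0. Of all tested genes 4.31%, 1.65%, 4.35%, 26.8% and 4.54% were below that p in the same comparisons, in either direction. The 14 at 8 h were all lower in exosome-treated cells, where 13.1% of all genes were lower at that p and 13.6% higher. The 4 at 4 h were all higher, against 2.54% of all genes higher and 1.81% lower. edgeR's quasi-likelihood test on recovered reads called 0 members at each time, and DESeq2 called 1 at 8 h. The shares of all genes called by edgeR and DESeq2 are not given here, so these counts are not read against a background.

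The members' differences at 8 h were mostly below 0, without any passing. Their median log2 difference, exosome minus untreated, was 0.06, 0.08 and 0.22 at 0.5, 2 and 4 h and -0.62 at 8 h, against a median within 0.01 of 0 over all tested genes at each time. At 8 h 32 of 35 were negative, with class medians of -0.61 in H1, -0.73 in H2A, -0.34 in H2B, -0.62 in H3 and -0.64 in H4. The size of the 8 h median depended on libraries of the untreated group: without the 4 libraries high in Rn7sk it was -0.17. Without untreated 8 h replicate 3, which leaves only 2 libraries of that kind in the group, it was -0.82 and 12 of the 35 members were called lower. In that fit 12.8% of all tested genes were called lower and 13.5% higher, so the rise in calls was not limited to the histone genes.

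Single genes at 8 h were compared library by library. Hist3h2a, an H2A gene of the chromosome 11 cluster, had 41.8, 19.3 and 23.3 normalized counts in exosome 8 h libraries, against 68.4, 28.3 and 33.9 in untreated 8 h libraries. The first value of each trio is the Set1 library, and within each set the exosome values lay below the untreated ones, while the groups as a whole overlapped. Its log2 difference was -0.58 ± 0.18 (SE), and its limma adjusted p of 0.0812 was the lowest of the members. Hist1h1c had 1124, 588 and 580 with exosomes, against 1971, 830 and 607 without. The exosome library of Set1 lay above both untreated Set2 libraries, and the log2 difference of -0.46 ± 0.15 (SE) missed the threshold at a limma adjusted p of 0.0835.

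For the H2B gene Hist1h2bg the 8 h values were 14.6, 12.0 and 14.3 with exosomes, against 27.9, 28.3 and 18.7 without. The groups did not overlap, yet the log2 difference of -0.81 ± 0.27 (SE) had a limma adjusted p of 0.0891. Among the 35 members, 9 had all exosome 8 h values below all untreated 8 h values and 0 had them above. Of all tested genes 7.79% lay lower without overlap and 5.37% higher. The 9 were Hist1h2ab, Hist1h2ae, Hist1h2af, Hist1h2an, Hist1h2bg, Hist1h3h, Hist1h4c, Hist1h4h and Hist2h2be.

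At 4 h the non-overlapping members lay the other way. All exosome values were above all untreated ones in 5 of the 35, Hist1h1d, Hist1h2ae, Hist1h2af, Hist1h2an and Hist1h2bb, and below in 0, against 3.11% and 2.53% of all tested genes. Hist1h1d, a linker histone gene, had 35.9, 26.3 and 19.1 normalized counts in exosome 4 h libraries, against 11.2, 18.7 and 13.6 in untreated 4 h libraries. The H2A gene Hist1h2ae had 63.7, 55.8 and 72.0 with exosomes, against 49.9, 31.4 and 34.1 without. The highest Hist1h1d value at 4 h is exosome 4 h replicate 1, the library high in Rn7sk. Log2 differences were 0.84 ± 0.29 for Hist1h1d and 0.74 ± 0.30 for Hist1h2ae (SE), both at a limma adjusted p of 0.920. Earlier times gave 1 higher without overlap and 0 lower at each: Hist1h3e at 0.5 h, against 3.36% and 3.06% of all genes, and Hist1h2ag at 2 h, against 1.92% and 1.62%.

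**Figure D4:**
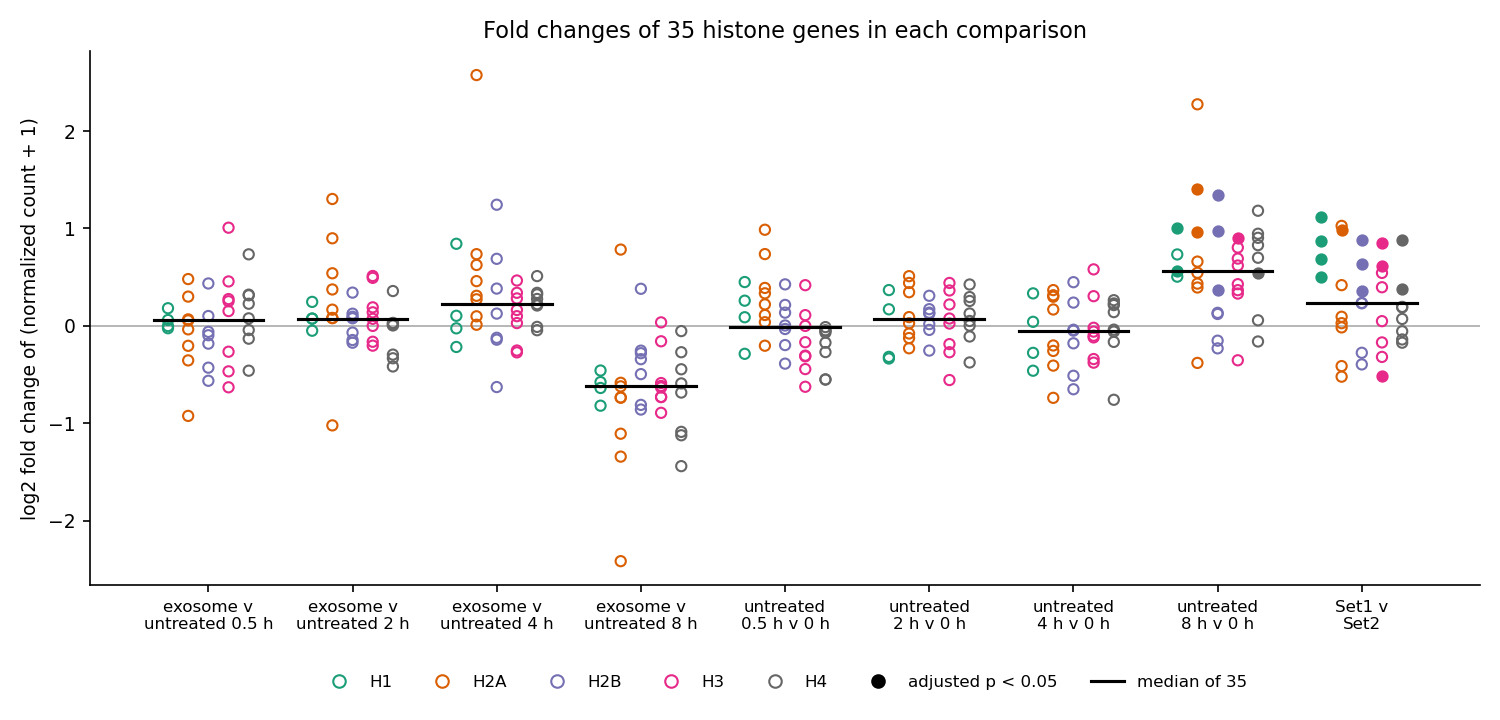
Log2 fold change of each of the 35 tested histone genes, coloured by class, for exosome against untreated cells at 4 times, untreated cells at 4 times against 0 h, and Set1 against Set2, with filled points for an adjusted p below 0.05 and a line at the median of the 35. No point is filled between treatments, 9 are filled in untreated cells at 8 h against 0 h, and the medians are -0.62 for exosome against untreated cells at 8 h and 0.57 for untreated 8 h against 0 h.

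The second comparison follows untreated cells after the change of medium, with the 4 libraries at 0 h as the start. No member was called at 0.5, 2 or 4 h, where 0.189%, 1.83% and 1.19% of all genes were, and where 1, 1 and 2 of the 35 members had an unadjusted p under 0.05 in limma, against 3.34%, 14.0% and 11.7% of all genes. By direction, 0.169%, 0.830% and 0.223% of all genes were higher and 0.0202%, 1.00% and 0.971% lower at those times. edgeR and DESeq2 also called 0 members at each of these times. At 8 h 9 of the 35 members were higher and 0 lower, against 15.9% of all tested genes higher and 15.8% lower (31.7% in either direction). The median member difference was 0.57 on the log2 scale with 30 of 35 positive. The untreated 8 h libraries are also the ones the exosome 8 h libraries were set against, so the 2 comparisons share them and their values are not independent.

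By class the calls at 8 h were 2 of 4 H1, 2 of 8 H2A, 3 of 7 H2B, 1 of 8 H3 and 1 of 8 H4 genes. Hist1h1c had 1971, 830 and 607 normalized counts in untreated 8 h libraries, against 907, 569, 570 and 539 at 0 h. The Set1 libraries, 1971 and 907, are the highest of their groups, and the Set2 values at 8 h lie above those at 0 h. The log2 difference was 0.57 ± 0.14 (SE), with a limma adjusted p of 0.00491. Hist1h4i had 1376, 1049 and 821 at 8 h, against 698, 672, 758 and 737 at 0 h. Every 8 h library lay above every 0 h library, by 0.55 ± 0.18 (SE) on the log2 scale at a limma adjusted p of 0.0211.

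Hist1h2bg rose to 27.9, 28.3 and 18.7 normalized counts in untreated 8 h libraries, against 11.5, 11.8, 11.1 and 11.7 at 0 h. The 0 h values were nearly equal, and the difference was 0.98 ± 0.26 (SE), limma adjusted p of 0.00751. Hist1h1d rose to 41.4, 63.9 and 25.9 at 8 h, against 31.7, 18.9, 16.7 and 13.8 at 0 h, by 1.01 ± 0.27 (SE) at a limma adjusted p of 0.00799. The third 8 h library lay below the Set1 library at 0 h, so these groups overlapped. Hist1h2bc rose by 0.37 ± 0.12 (SE, limma adjusted p of 0.0228), with 414, 235 and 200 at 8 h, against 261, 192, 189 and 162 at 0 h, which overlapped.

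Among the lower genes, Hist1h2ai of H2A had 22.5, 40.4 and 12.5 normalized counts at 8 h, against 2.88, 15.3, 8.33 and 9.57 at 0 h. Untreated 8 h replicate 2 was the highest and the groups overlapped. The log2 difference of 1.41 ± 0.46 (SE) passed with a limma adjusted p of 0.0243. Hist1h2ag, another H2A gene, had 26.1, 32.4 and 20.5 at 8 h, against 8.65, 9.43, 19.4 and 18.1 at 0 h, all 8 h values above all 0 h values. The remaining calls were Hist1h2bb, at 1.34 (limma adjusted p of 0.0358), and Hist1h3a, at 0.90 (0.0392). Without overlap, 9 members were higher at 8 h and 0 lower, against 13.0% and 10.4% of all genes: Hist1h2ae, Hist1h2af, Hist1h2ag, Hist1h2bg, Hist1h3h, Hist1h4c, Hist1h4d, Hist1h4i and Hist1h4n.

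The number of calls depended on which libraries entered the fit, for the members as for all genes. Left out one at a time, untreated 8 h replicate 1, replicate 2 and replicate 3 and untreated 0 h replicate 1 gave 3, 1, 15 and 4 members called in place of 9. In those fits 6.58%, 6.39%, 19.3% and 11.9% of all tested genes were called higher, so that without replicate 2 the 1 of 35 members lay below the share of all genes. Without the 4 libraries high in Rn7sk, which leaves untreated 8 h replicate 3 alone in its group, 0 members were called and the median was 0.21 at 8 h, and 0.0877% of all tested genes were called higher. That fit assumes that the lone library varies like the other groups. Hist1h1c stayed called whichever single library was left out.

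**Figure D5:**
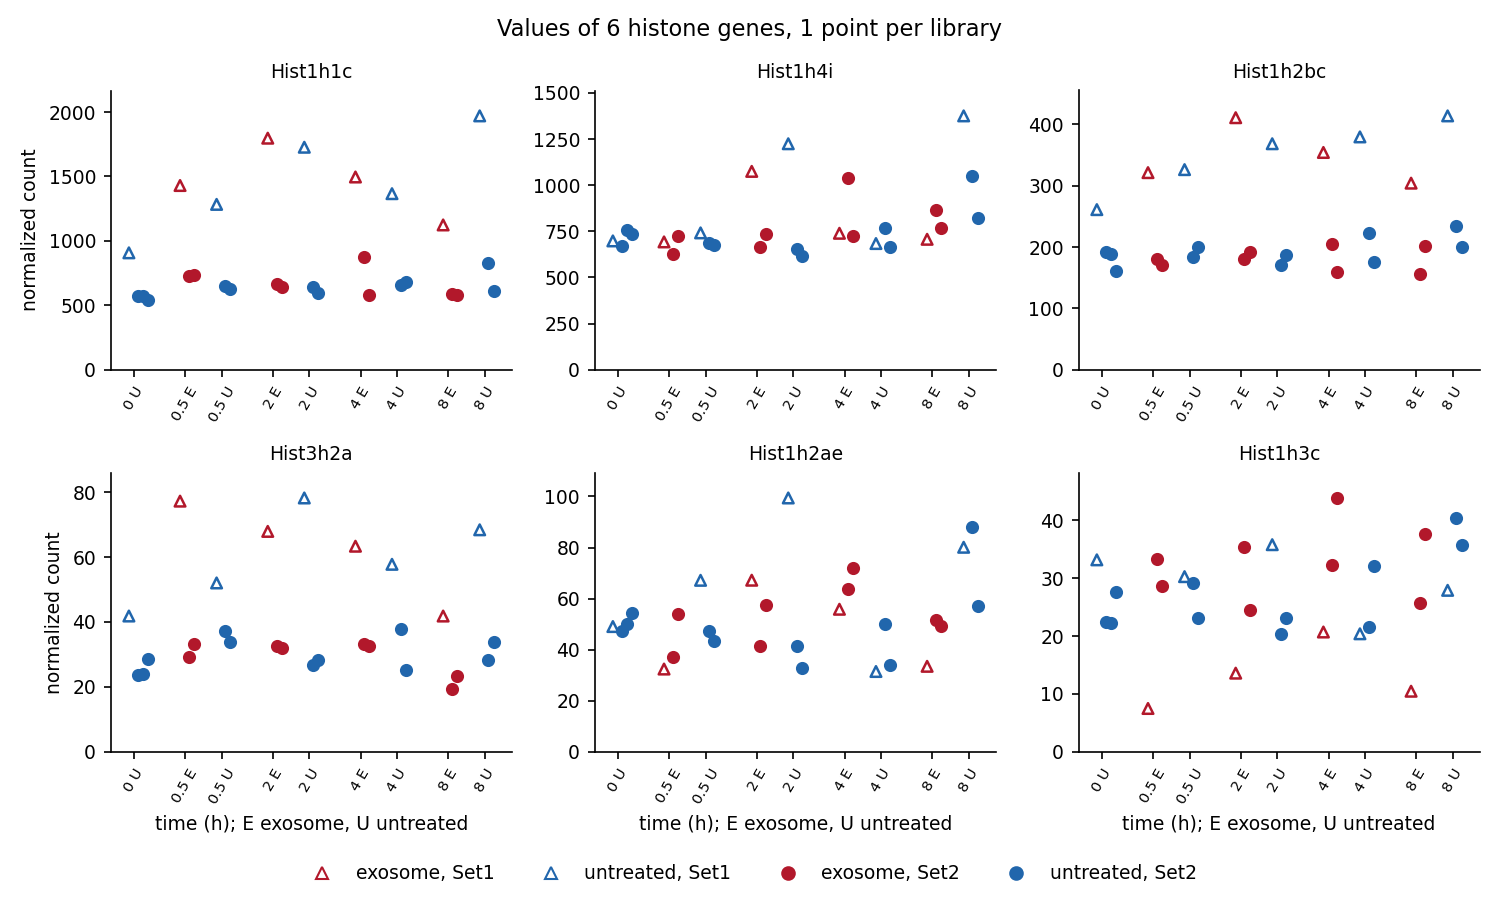
Normalized counts of 6 histone genes in each library by time, with treatment and Set marked. Hist1h1c reaches 1971 in untreated 8 h replicate 1, and the Set1 libraries of Hist1h1c lie at 907 to 1971, against 539 to 875 in Set2.

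The third comparison sets Set1 against Set2, across the 9 groups that both hold. Of the 35 members 12 were higher in Set1 and 1 lower, against 29.2% of all tested genes higher and 28.5% lower (57.6% in either direction). The share of members called higher, 12 of 35, is close to the background, while the single call lower is below it. All 4 tested H1 genes were higher, as were 1 of 8 H2A, 3 of 7 H2B, 2 of 8 H3 and 2 of 8 H4 genes. The median member difference, Set1 minus Set2, was 0.23 on the log2 scale, against 0.01 for all genes. Set is a property of the sequencing columns that the descriptions label as a batch, and what else differed between the sets cannot be told apart from it.

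Hist1h1c ran at 907, 1430 and 1971 normalized counts in Set1 (lowest, median and highest of 9), against 539, 639 and 875 in Set2 (of 19). Every Set1 library lay above every Set2 library, and the log2 difference was 1.12 ± 0.07 (SE) with a limma adjusted p of 1.73e-12. Hist1h2bc was at 261, 354 and 414 in Set1, against 155, 186 and 235 in Set2, again without overlap, by 0.88 ± 0.06 (SE, limma adjusted p of 1.04e-11). Hist3h2a was at 41.8, 63.3 and 78.2 in Set1, against 19.3, 29.3 and 37.9 in Set2, by 0.99 ± 0.09 (SE, limma adjusted p of 1.18e-09). These 3 were the members without overlap, and 4.88% of all genes were higher in that way and 4.30% lower.

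Other members overlapped between the sets. Hist1h1b, a linker histone gene, had 18.2, 29.7 and 32.4 normalized counts in Set1, against 3.37, 14.7 and 29.9 in Set2, at a log2 difference of 0.87. Hist1h2bg had 11.5, 21.8 and 30.7 in Set1, against 5.52, 11.8 and 28.3 in Set2, and its difference of 0.64 ± 0.14 (SE) was called. For Hist1h3d, an H3 gene, the values were 8.65, 17.0 and 24.9 in Set1, against 4.48, 8.48 and 13.2 in Set2. Hist2h2be was at 112, 140 and 198 in Set1, against 85.5, 111 and 164 in Set2. The differences of Hist1h3d and Hist2h2be were 0.85 ± 0.19 and 0.36 ± 0.08 (SE), both called. Hist1h4i, the highest member per kb, had 684, 739 and 1376 in Set1, against 619, 725 and 1049 in Set2, and its difference of 0.19 missed the threshold at a limma adjusted p of 0.0821. The size of the difference between the sets was thus unequal among the abundant members.

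Hist1h3c was the only member lower in Set1. This H3 gene, at chr13:23744973-23745602 on the minus strand, averaged 27.1 normalized counts. Its log2 difference between the sets was -0.51 ± 0.19 (SE, limma adjusted p of 0.0269). It was also the single member, of 5 genes among 14828 (0.0337%), whose exosome effect averaged over the 4 times differed between the sets. In Set1 Hist1h3c had 7.47, 13.6, 20.7 and 10.5 normalized counts at 0.5, 2, 4 and 8 h with exosomes, against 30.3, 35.8, 20.4 and 27.9 without. The exosome libraries lay below the untreated ones at 0.5, 2 and 8 h and level with them at 4 h.

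Read depth behind those values was small: 65 reads in the 4 exosome libraries of Set1, 3 of them at 0.5 h, against 114 in the 4 untreated ones. In Set2 the exosome libraries held 33.2 and 28.7 at 0.5 h, 35.4 and 24.5 at 2 h, 32.3 and 43.9 at 4 h, and 25.7 and 37.6 at 8 h. Untreated Set2 libraries held 29.1 and 23.1, 20.3 and 23.2, 21.5 and 32.2, and 40.4 and 35.7 at the same times. Ranges of the treatments overlapped in Set2, at 24.5 to 43.9 with exosomes and 20.3 to 40.4 without. The exosome effect was -1.20 ± 0.22 in Set1 (limma adjusted p of 0.00934, with 0.229% of all genes called) and 0.25 ± 0.16 in Set2 (adjusted p of 1.00, 0.479% called). The difference of the effects was -1.45 ± 0.26 (SE), limma adjusted p of 0.0463, and that call was lost in 22 of 28 fits that left out 1 library. It was kept only without exosome 2 h replicate 3, exosome 4 h replicate 1 or 2, untreated 4 h replicate 2 or 3, or untreated 8 h replicate 1.

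Genes that make, end and degrade histone mRNA were described beside the members, from lists drawn up for the pathway. Between exosome-treated and untreated cells, 0 genes were called at any time among 14 for histone gene transcription and 3′ end formation, 9 for histone mRNA decay, 8 histone variants outside the clusters, 17 histone chaperones and 20 of S phase and DNA replication. Slbp, which encodes the stem-loop binding protein, differed by -0.04, 0.01, 0.04 and -0.07 on the log2 scale at 0.5, 2, 4 and 8 h, each with an SE of 0.07. Npat, the coactivator that switches histone genes on at S phase entry, differed by 0.23 ± 0.09 (SE) at 8 h, at a limma adjusted p of 0.118. Casp8ap2, a partner of Npat in histone locus bodies, differed by 0.23 ± 0.13 (SE) at 8 h, at a limma adjusted p of 0.244.

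In untreated cells at 8 h against 0 h, 4 of the 8 variant genes were higher and 0 lower, where 15.9% of all genes were higher and 15.8% lower. H3f3a rose by 0.61, H2afv by 0.59, H2afj by 0.57 and H3f3b by 0.31 on the log2 scale, and all 4 make replacement histones whose mRNA carries a poly(A) tail. Of the S phase genes 4 of 20 were higher and 0 lower, a share near that of all genes, with Gins2, a subunit of the replicative helicase complex, at 0.59 and Tyms, thymidylate synthase, at 0.44. The chaperones had 9 of 17 higher, among them Chaf1b at 0.35 and Asf1a at 0.33, which hand H3 and H4 to new DNA. For decay, Lsm1 rose by 0.41, while Upf1 fell by 0.28, Xrn1 fell by 0.34 and Tut7 fell by 0.27. In 3′ end formation the cap-binding genes Ncbp1 (0.18) and Ncbp2 (0.22) rose and Srrt (-0.24) fell. Slbp, at 0.13 ± 0.07 (SE), missed the threshold with a limma adjusted p of 0.128.

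Between the sets the S phase genes lay opposite to the leading histone genes Hist1h1c, Hist1h2bc and Hist2h2be, while Hist1h4i was not called. Of 20 S phase genes 18 were lower in Set1 and 0 higher, with a median of -0.28, against 0.01 for all genes, of which 28.5% were lower and 29.2% higher. Cdc6, a loader of the replicative helicase, was at -0.58, and Mcm7, a subunit of that helicase, at -0.57 on the log2 scale. Slbp had 1492, 1613 and 1709 normalized counts in Set1 (lowest, median and highest), against 2167, 2309 and 2753 in Set2, without overlap, a log2 difference of -0.57 ± 0.04 (SE). Genes of transcription and 3′ end formation were lower in 10 of 14 cases and higher in 2, Mif4gd and Lsm10, and chaperones were lower in 11 of 17 and higher in 1, Hat1. Npat was at 1058, 1359 and 1523 in Set1, against 1137, 1308 and 1499 in Set2, a difference of 0.03 ± 0.05 (SE) at a limma adjusted p of 0.601. Of the variants, H2afx and Cenpa were lower and H3f3b was higher. Among the RNAs without a poly(A) tail, Rmrp was higher by 1.19 and Rpph1 was lower, at -1.10, and Rn7sk, at 0.90, missed the threshold. Other cell type markers moved with Set too: the B cell list summed to 39.7 to 82.2 normalized counts in Set1, against 1.72 to 13.8 in Set2, most of it Cd79b. The T cell markers summed to 128619 to 155900 in Set1, against 102886 to 122615 in Set2, without overlap, with 4 of 7 genes called higher (Prf1 at 0.98, Cd8a at 0.72, Cd3g at 0.71 and Gzmb at 0.33) and 1 lower (Il2ra at -0.22). Their part in the histone differences was not tested.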

How the data were processed

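RNA of 28 CTLL2 libraries was sequenced. The authors deposited, per the labels, 1 table of gene counts normalized by a size factor per library, a signal that is not a raw count. Listed in the submitters' processing notes are the build GRCm38.p2, STAR 2.4.2, CASAVA 1.8.4, R 3.3.2, featureCounts 1.5.0 and DESeq2. Not given in the sources used here are the annotation release, the strand setting and the rule for reads that match several genes. The values of each library are whole multiples of 1 step, so that 100% of them gave whole reads within 0.01 read, with size factors of 0.401 to 1.59 and totals of 6072984 to 24085812 reads.

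Gene identifiers were matched to GENCODE M21 (30439 of 30608 found). The members, lists and tests were chosen with earlier results of these data known. Stem-loops and shared 50-base stretches came from the GENCODE transcript sequences, and promoters from RefSeq. Levels per kb divide the mean normalized count by the exon length.

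The test was limma 3.58.1 with a mean-variance trend in R 4.3.3 on log2(normalized count + 1), for genes at 10 or more in at least 3 libraries. A fold change on that scale understates the change of low genes. The fit had 1 mean per group plus a Set term, or a treatment-by-Set term for the difference between the sets. P-values were adjusted over all tested genes (Benjamini-Hochberg), and calls are below 0.05. The series calls its replicates biological, and p-values measure the spread between these libraries. Counts of 3 reads are given as a floor, which covers counting error only. The procedure was tested on simulated data. Alternatives were edgeR 4.0.16 and DESeq2 1.42.0 on recovered reads, other pseudocounts, scalings and filters, fits without the Set term, Set2 alone, a replicate block and each library left out. Leaving out libraries by Rn7sk or Acta1 was chosen after seeing the data.

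Members named with values were the 2 with the highest mean per kb in each class, the 6 called with the smallest p in each direction of each comparison, and Hist1h3c. Members named beyond that, such as those whose groups did not overlap, the remaining calls at 8 h, Hist1h2ac and the lowest 4, were chosen after their values were seen. From each list, called genes with the largest change, up to 4, were named, with Slbp, Npat and Casp8ap2 always given.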

Additional observations from a re-analysis of the deposited data

Results flagged for a closer look

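Hist1h1c at 0 h had 907 normalized counts in untreated replicate 1, the Set1 library, against 539 to 570 in the other 3 libraries of the group, which are Set2 libraries. The sum of the H1 genes in the same library, 989, stood apart in the same way. In both cases the gap of this library to its nearest neighbour took up more of the group's range than Dixon's critical value for 4 samples allows. Chance gives such a gap in about 1 of 20 groups, and 21 groups of 4 were examined. That rate takes no account of Set. Hist1h1c lay at 907 to 1971 in Set1 libraries and 539 to 875 in Set2 libraries, so 907 was the lowest Set1 value. Of the 9 groups only untreated 0 h has 4 libraries, and the H1 sum includes Hist1h1c, so the flagged values are not independent.

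The exosome effect on Hist1h3c differed between the sets by -1.45 on the log2 scale, Set1 minus Set2, with a limma adjusted p of 0.0463. That call was lost in 22 of 28 fits that left out 1 library, in edgeR and DESeq2, with a pseudocount of 0.5, without the filter, under TMM or library-total scaling and with a replicate block. Hist1h2ae was higher in every exosome than in every untreated library at 4 h, by 0.74 on the log2 scale, and lower in every exosome library at 8 h, at -0.74. The difference between these times was not tested.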

How the results depend on the processing

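The direction of no result turned round under any alternative. Of the counts of called members, 403 alternatives stayed within 1.5 times of the count reported and 44 did not. Members called for the exosome effect at 8 h, 0 in limma, numbered 1 with DESeq2 on recovered reads. With single libraries left out the number ran from 0 to 12. It was 12 without untreated 8 h replicate 3 and 1 without exosome 4 h replicate 1, all lower in exosome-treated cells. In those fits 12.8% and 2.66% of all tested genes were called lower. For untreated 2 h against 0 h the count of 0 became 1 without the libraries high in Rn7sk. For untreated 8 h against 0 h the count of 9 became 5 without the filter, 1 without a Set term and 4 in Set2 alone. It ran from 1 to 15 with single libraries left out, the ends being without untreated 8 h replicate 2 and without replicate 3. In those fits 6.39% and 19.3% of all tested genes were called higher, against 15.9% in the main fit. Leaving out the libraries high in Rn7sk or those high in Acta1 keeps only untreated 8 h replicate 3 in its group. The median member difference was then 0.21 on the log2 scale in each case, against 0.57. The count of 12 higher and 1 lower between the sets, 13 in all, ran from 12 to 15 with single libraries left out. The difference of the exosome effect between the sets, 1 member, became 0 with a pseudocount of 0.5, without the filter, with TMM or library-total scaling, in edgeR and in DESeq2, without untreated 4 h replicate 1 and exosome 8 h replicate 3, and without the libraries high in Acta1, and 0 to 1 with single libraries left out. Where no share of all genes stands beside a count, that count is not read as particular to the members. The cause of these shifts was not tested, beyond the loss of libraries in those that leave some out.

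Deviations from the group means correlated above 0.1 in 68 of 108 pairs of libraries with the same replicate number, so not in every pair, and the numbers were not taken as pairing. Within a set the median correlation was 0.384 over 72 pairs with the same number and 0.325 over 124 pairs with different numbers. Over the 36 pairs with the same number in different sets it was -0.437, and 0 of them were over 0.1. With a replicate block, 6 members were called at untreated 8 h against 0 h and 9 between the sets. For the difference of the exosome effect between the sets the count was 0. Without the block 31.7% of all tested genes were called at untreated 8 h against 0 h and 57.6% between the sets. The shares with the block are not given here, so the 6 and 9 are not read as particular to the members. The block left 0 members called in each exosome comparison.

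Depth limits the low members: 19 of 54 were not tested, and 3 reads stand for up to 7.47 normalized counts in the shallowest library. Single member calls kept their direction in all 4536 alternatives, while 120 lost and 8 gained a call.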
